A study of Mus musculus with 2 samples.

Results

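The genes described here are the 31 semaphorins, plexins and neuropilins of the mouse, chosen by name as a ligand and receptor system: 20 semaphorins as ligands, and 9 plexins and 2 neuropilins as receptors. N6-methyladenosine (m6A) was mapped at single-base resolution with GLORI, in which glyoxal and nitrite deaminate unmethylated adenosines so that only methylated adenosines are still read as A. There were 2 libraries of poly(A)+ RNA, 1 of cerebellum and 1 of cerebrum, which the methods describe as taken from 1 female F1r mouse at P0, the day of birth. F1r mice are hybrids that have a C57 mother and a PWK father. Both tissues were treated in the same way, and no untreated library was analysed here. A site was counted for a gene when it lay inside the GENCODE M21 interval of that gene on its strand. By this rule the 31 genes, out of 21951 protein-coding genes, held 1056 different sites, of which 375 were among the 79355 sites listed for the cerebellum and 920 among the 188295 listed for the cerebrum.

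Semaphorins are guidance cues that steer growing axons and migrating neurons. Class 3 semaphorins are secreted, classes 4, 5 and 6 span the membrane, and Sema7a is anchored to it by a lipid. Plexins are the receptors that pass the signal to small GTPases in the cell, and neuropilins bind class 3 semaphorins and form receptor complexes with the A-type plexins. m6A is written mostly at adenosines within the DRACH motif (R is a purine, D any base but C, and H any base but G) and is known to lie mainly in long exons, near stop codons and in 3' UTRs.

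The lists give positions only, without methylation rates or read counts. The coverage of each site is therefore unknown, and a missing site can be unmethylated, in an unexpressed gene or too thinly covered. With 1 library per tissue there was no replicate check and no test between tissues. Shares are given with 95% Wilson intervals, which cover counting error over sites only, and sites of the same gene are not independent. As a check of the labels, all 14 cerebrum marker genes had a site in the cerebrum list and 4 of them in the cerebellum list. Of 14 cerebellum markers 10 had a site in the cerebellum list and 7 in the cerebrum list. More sites in the cerebellum list were held by 5 of them, among these En1 (6 against 0) and En2 (9 against 0). Another 4, Zic1, Zic2, Cbln1 and Rora, had more in the cerebrum list, which is the longer list. Atoh1, Ptf1a, Pax2 and Skor2 had no site in either list.

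Most genes of the system carried listed sites in both tissues. In the cerebellum 25 of the 31 genes had at least 1 site, beside 41.2% of all protein-coding genes, and in the cerebrum 27 of the 31 had one, beside 57.4%. Among the ligands 16 of 20 had a site in the cerebellum and 18 in the cerebrum, and among the receptors 9 of 11 had one in each. All 25 genes with a cerebellum site also had at least 1 DRACH site at an identical position in both lists. The genes with a site held a median of 8 cerebellum sites and 19 cerebrum sites, where the 12874 coding genes with a site in either list had medians of 2 and 6.

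**Figure D1:**
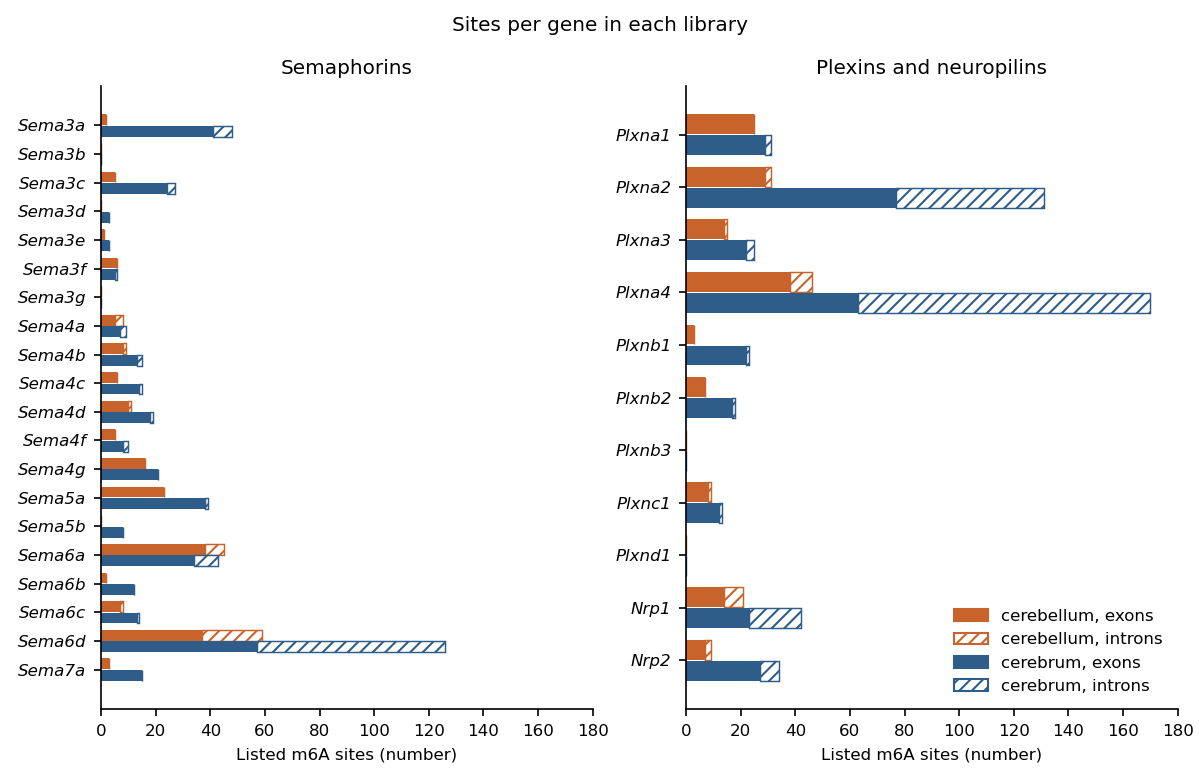
Number of listed m6A sites in each gene, with semaphorins on the left and plexins and neuropilins on the right. Filled bars are sites on annotated exons and hatched bars sites in introns; Sema6d, Plxna4 and Plxna2 had the most sites in the cerebrum, with 69, 107 and 54 of their cerebrum sites in introns.

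Among the ligands the sites were concentrated in a few genes. Sema6d, Sema6a, Sema5a, Sema3a and Sema3c together held 134 of the 209 ligand sites of the cerebellum and 283 of the 433 of the cerebrum. Sema6d, a membrane-spanning ligand of A-type plexins, had 59 cerebellum sites and 126 cerebrum sites, 29 of them shared. Its gene lies at chr2:124089969-124667770 on the plus strand. On its exons it had 37 and 57 sites, and 69 of its cerebrum sites lay in introns. Sema6a, the other class 6 ligand with many sites, had 45 cerebellum sites and 43 cerebrum sites, 26 of them shared. It was the only one of the 31 genes with more sites in the cerebellum than in the cerebrum, an order found in 4.51% of the coding genes with a site in either list.

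Sema5a, a membrane-spanning semaphorin with thrombospondin repeats, had 23 cerebellum sites, 39 cerebrum sites and 13 shared ones. Of its 49 different sites 42 lay in the 3' UTR, which is 6926 nt long in its longest isoform. Sema3a, a secreted repellent of axons that acts through Nrp1, had the lowest ratio of cerebellum to cerebrum sites among the genes with sites in both lists, 0.0417, with 2 cerebellum sites and 48 cerebrum sites. Its gene lies at chr5:13125414-13602565 on the plus strand. Both cerebellum sites were also among the cerebrum sites. Sema3c, secreted as well, had 5 sites in the cerebellum, all of them shared, and 27 in the cerebrum. In tissue RNA, fewer cells that express a gene and less RNA of it per cell cannot be told apart, and site lists carry neither quantity.

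The DRACH site found in both lists that lay nearest to the stop codon is shown for these ligands and for the 5 receptors with the most sites, because nearly all coding DRACH sites of the ligands lay in the last exon, toward the end of the coding sequence. No window is printed for Sema6a. The windows are 21 nt of GRCm38 on the strand of the gene, 5′ to 3′, with the motif in capitals and the listed adenosine as its middle base.
Sema6d, chr2:124665283-124665303, plus strand: agaccactGAACAagtacacg
Sema5a, chr15:32689434-32689454, plus strand: ctcgttgtAAACTcgctgctc
Sema3a, chr5:13600097-13600117, plus strand: agatataaAAACAcaaaccac
Sema3c, chr5:17727921-17727941, plus strand: tatgatacAGACTagcactag
Plxna4, chr6:32150476-32150496, minus strand: acagctgaGAACTgtccttcc
Plxna2, chr1:194812181-194812201, plus strand: tggaagagAGACTcatataag
Nrp1, chr8:128502776-128502796, plus strand: gataaactGAACCcacagagt
Plxna1, chr6:89320946-89320966, minus strand: accttcatGGACTcctgctct
Nrp2, chr1:62815725-62815745, plus strand: ccctttggAAACTgaatgcca

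The Sema6d site lay in the coding part of exon 18 of 18, and the Nrp1 site in the coding part of exon 17 of 17. The sites of Sema5a, Sema3a, Sema3c, Plxna4, Plxna2 and Nrp2 lay in the 3' UTR, and the distance from the last base of the stop codon ranged from 3 nt in Plxna4 to 504 nt in Sema3a. The Plxna1 site was the only one of these outside the last exon, in exon 30 of 32.

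Of the remaining ligands, Sema3d and Sema5b had sites only in the cerebrum list. Sema3d had 3, none of them in a DRACH motif. Sema5b had 8, 7 of them in DRACH motifs, and all 8 lay in the last exon. Sema3b and Sema3g, both secreted, had no site in either list, although their longest isoforms hold 77 and 90 DRACH adenosines. Sema3f, the secreted ligand of Nrp2, had 6 sites in each list, of which 5 cerebellum and 4 cerebrum sites were in DRACH motifs.

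Among the receptors, Plxna4, Plxna2, Nrp1, Plxna1 and Nrp2 held 132 of 166 receptor sites for cerebellum and 408 of 487 for cerebrum. Plxna4, at chr6:32144268-32588192 on the minus strand, had the most different sites of all 31 genes over both lists together, with 46 in the cerebellum, 170 in the cerebrum and 30 in both. Plxna2, at chr1:194618218-194816869 on the plus strand, had 31 and 131 sites with 22 shared, and both of these receptors are partners of neuropilins and of class 6 semaphorins. On exons alone Plxna4 had 38 and 63 sites and Plxna2 29 and 77. Plxna1 had 25 cerebellum sites and 31 cerebrum sites with 16 shared, which is 0.806 cerebellum sites per cerebrum site, where Plxna2 had 0.237 and Plxna4 0.271.

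Nrp1, the co-receptor for Sema3a, had 21 and 42 sites with 13 shared, and Nrp2, the co-receptor for Sema3f, had 9 and 34 sites with 5 shared. Plxnb3 and Plxnd1, the receptor for Sema3e, had no site in either list, although their longest isoforms hold 132 and 127 DRACH adenosines. Every other receptor had sites in both lists. The other 15 genes with sites in both lists, 11 of the ligands (Sema3f among them) and 4 of the receptors, had 1 to 16 sites in the cerebellum (median 7) and 3 to 25 in the cerebrum (median 15).

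Counts grow with transcript length, so the share of DRACH adenosines on the longest complete isoform that were listed sites was compared as well. In the cerebellum 136 of the 2042 DRACH adenosines of the ligands were listed, 6.66% (interval 5.66 to 7.82), and 104 of the 1733 of the receptors, 6% (4.98 to 7.22). In the cerebrum the shares were 10.6% for ligands (9.32 to 12) and 11.1% for receptors (9.74 to 12.7). The intervals of the 2 classes overlapped in both tissues. Over the transcripts with at least 1 listed DRACH site, 7.66% of the DRACH adenosines of these genes were listed in the cerebellum and 12.7% in the cerebrum, where the same shares over all coding genes were 6.54% and 9.13%.

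The families within each class were less alike than the classes. The 4 class 6 semaphorins had the highest listed share, 15.7% for cerebellum (12.5 to 19.6) and 18.6% for cerebrum (15.2 to 22.7). The 4 A-type plexins followed with 10.1% (8.22 to 12.4) and 17.6% (15.1 to 20.4), and the 6 class 4 semaphorins with 8.51% (6.33 to 11.3) and 13.9% (11.1 to 17.3). The 2 neuropilins had 6.1% (3.73 to 9.82) and 12.6% (9.02 to 17.3). In the cerebrum the intervals of these 4 families overlapped.

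The 7 class 3 semaphorins had 1.45% for cerebellum (0.81 to 2.57) and 5% for cerebrum (3.66 to 6.79), and the 3 B-type plexins 1.19% (0.511 to 2.76) and 5.01% (3.3 to 7.54). Pooled over genes, both stood below the class 6 semaphorins and the A-type plexins in each tissue, beyond the counting error. With the genes that have no site left out, the class 3 shares were 2.38% (1.33 to 4.2) and 6.41% (4.7 to 8.67), still below the intervals of those 2 families. Single genes of class 3 and class 6 overlapped, however. In the cerebrum they ran from 0% to 15.2% (Sema3a) in class 3 and from 8.96% (Sema6b) to 25% (Sema6d) in class 6. In the cerebellum they ran from 0% to 7.94% and from 2.99% to 21.4%. Expression, which sets whether a site can be listed, was not measured here, and its part in these differences was not tested.

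The place of the sites on coding exons, UTRs included, differed between ligands and receptors. Among ligand sites on coding exons, 158 of 172 in the cerebellum lay in the last exon, 91.9% (86.8 to 95.1), and 267 of 308 in the cerebrum, 86.7% (82.4 to 90). Among receptor sites these were 71 of 144, 49.3% (41.3 to 57.4), and 142 of 281, 50.5% (44.7 to 56.3). The last exon held 53.9% of the DRACH adenosines of the ligands with a site in the cerebellum and 31.3% of those of the receptors, so the transcripts of both classes also differed in structure. In the coding part of the last exon, receptors with a site had 5 of 31 DRACH adenosines listed in the cerebellum, 16.1% (7.09 to 32.6). In the cerebrum they had 11 of 31, 35.5% (21.1 to 53.1). Both intervals overlapped those of the ligands given below. That part is only 96 nt long in each A-type plexin. In Nrp1 it is 290 nt long, and 5 and 7 of its 9 DRACH adenosines were listed, against 1 of 62 in other coding exons in each tissue.

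In the ligands few coding DRACH sites lay outside the last exon. Of the DRACH adenosines in other coding exons of ligands, 1 of 650 was listed in the cerebellum, 0.154% (0.0272 to 0.866), and 2 of 701 in the cerebrum, 0.285% (0.0783 to 1.03). In the coding part of the last exon 45 of 216 were listed in the cerebellum, 20.8% (16 to 26.7), and 72 of 223 in the cerebrum, 32.3% (26.5 to 38.7). Sema6d supplied 19 and Sema6a 13 of the 45, and 21 and 12 of the 72. The pooled cerebellum share therefore rests largely on these genes, and no share without them was computed. Over all motifs 9 of 64 coding sites of the cerebellum and 27 of 117 of the cerebrum lay in earlier exons, 8 and 25 of them outside DRACH motifs. Over all coding genes the listed share of DRACH adenosines was 3.92% (cerebellum) and 5.49% (cerebrum) in other coding exons, and 13.6% and 19.6% in the coding part of the last exon. The other exons are unlike in length, since the longest internal exon of any ligand was 501 nt, in Sema4g. In internal exons of 200 nt or less all coding genes had 0.233% and 0.597% listed. The part of exon length in the low ligand shares was not tested.

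Class 6 semaphorins end in a long cytoplasmic tail, and the last exon of Sema6d held 1289 nt of coding sequence. Of its 34 DRACH adenosines there, 19 were listed in the cerebellum, 21 in the cerebrum and 17 in both. Sema6a had 1202 nt of coding sequence in its last exon, with 13 of 25 DRACH adenosines listed in the cerebellum, 12 in the cerebrum and 11 in both. In neither gene was a DRACH adenosine of any other coding exon listed, of 43 in Sema6d and 48 in Sema6a. Sema4c, with 830 nt of coding sequence in its last exon, had 3 and 9 of 20 listed, and Sema3a, with 456 nt, had 0 and 5 of 15.

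The densest group of sites in the system lay in that exon of Sema6d. From 283 to 89 nt before the end of the stop codon, all 9 DRACH adenosines were listed in at least 1 tissue and 5 in both. In Nrp1 all 7 DRACH adenosines from 215 to 28 nt before the end of the stop codon were listed, 5 of them in both tissues. In Plxna2 7 of 8 were listed from 790 to 979 nt into the 3' UTR, of which 2 were in both. These windows of at most 200 nt are the densest of each gene and were picked for that, so they describe the genes and compare nothing.

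The A-type plexins carried most of their coding DRACH sites at the opposite end. Exon 2 of Plxna1, Plxna2 and Plxna4 is 1261, 1262 and 1270 nt long and holds the start codon and the beginning of the extracellular part, where the sema domain of plexins lies. In Plxna4 13 of the 31 DRACH adenosines of that exon were listed in the cerebellum and 18 in the cerebrum, and all 13 were shared. In Plxna2 8 of 23 were listed in the cerebellum and 14 in the cerebrum, and all 8 were shared. In Plxna1 9 of 22 were listed in each tissue, with 7 shared.

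Plxna3 has a shorter exon 2 of 624 nt, followed by an exon of 540 nt. There 4 of 12 DRACH adenosines of exon 2 were listed in the cerebellum and 6 in the cerebrum, and 2 of 6 in the next exon in each tissue. Over the 4 A-type plexins, 34 of 88 DRACH adenosines of exon 2 were listed in the cerebellum, 38.6% (29.1 to 49.1), and 47 of 88 in the cerebrum, 53.4% (43.1 to 63.5), and 32 of them in both. In the coding sequence outside exon 2 the shares were 8 of 415, 1.93% (0.98 to 3.76), and 12 of 415, 2.89% (1.66 to 4.99). Their 3' UTRs stood between, with 13.9% (10.2 to 18.5) and 27.3% (22.3 to 33).

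**Figure D2:**
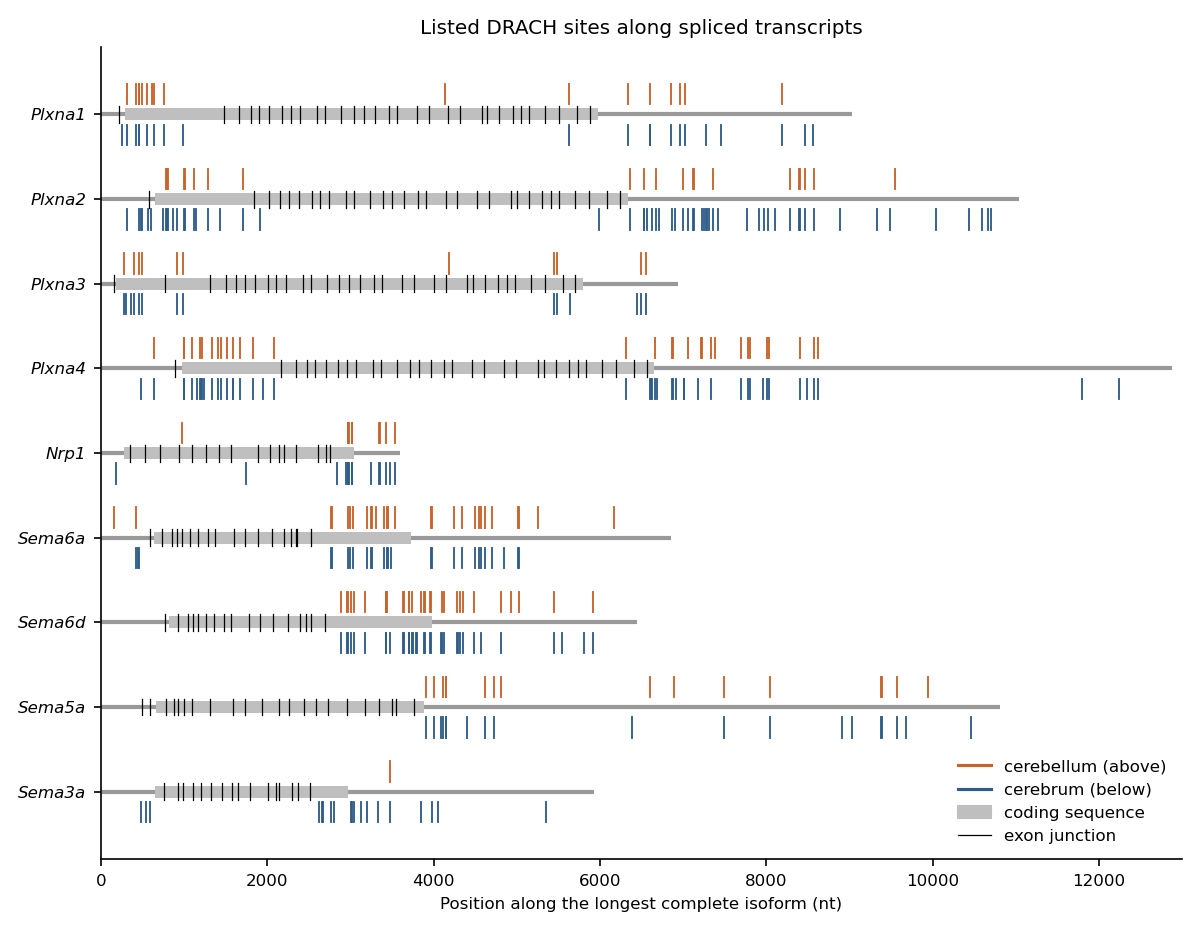
Listed DRACH sites along the spliced longest isoform of 9 genes, in nt from the transcript start, with cerebellum sites as marks above each line and cerebrum sites below. Grey boxes are coding sequence and black marks exon junctions; the A-type plexins had sites in the long exon 2 and in the 3' UTR, and Sema6d only from the last exon junction onward, as did Sema6a apart from its sites in the 5' UTR.

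The other plexins also have a long exon with the start codon, and in Plxnb1 and Plxnb2 it held most of the listed coding DRACH sites. In Plxnb2, exon 4 of 1087 nt had 3 of 15 DRACH adenosines listed in each tissue, the same 3 in both. The other coding sequence of Plxnb2 had 0 of 94 listed in the cerebellum and 2 in the cerebrum. In Plxnb1, exon 3 of 1113 nt had 0 of 16 listed in the cerebellum and 4 in the cerebrum. The other coding sequence of Plxnb1 had 0 of 111 listed in the cerebellum and 1 in the cerebrum. Plxnc1, a receptor of Sema7a, has a first exon of 1319 nt in which 0 of 12 DRACH adenosines were listed in either tissue. Its sites on other exons included 4 cerebellum DRACH sites and 2 cerebrum DRACH sites, all in the 3' UTR.

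Because A-type plexins are close paralogs, their coding sequences were aligned codon by codon. In the cerebrum, listed DRACH sites fell on an aligned DRACH adenosine of another A-type plexin 76 times, and in 54 of these, 71.1%, that adenosine was listed too, where 10.9% of all coding DRACH adenosines of these paralogs were listed, each paralog weighted by its aligned positions. In the cerebellum this was 32 of 59, 54.2%, beside 8.21%. Much of this came with exon 2: for aligned adenosines in that exon the listed share was 70.7% beside 53.5% of all there in the cerebrum, and 59.5% beside 41.1% in the cerebellum. Outside exon 2 it was 13 of 18 beside 3.08% in the cerebrum and 7 of 17 beside 2.2% in the cerebellum. Most of these 13 and 7 came from 1 aligned position, in an exon of 213 nt near the end of the coding sequence. That position was listed in all 4 genes in the cerebrum and in Plxna1, Plxna3 and Plxna4 in the cerebellum. The shares outside exon 2 therefore rest mostly on that position. Each pair was counted from both sides and paralogs share sequence by descent, so these counts are no independent events.

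There were 9 aligned positions listed in 2 or more A-type plexins, 5 of them in 3 or more. In the other families there were 2 in class 3, 3 in class 6 and 1 in the neuropilins. Ordered by the number of paralogs and of listings, the first 5 were all from A-type plexins, and the sixth tied with another A-type plexin position and with 1 of Sema6a and Sema6d and was taken by the order of family names and alignment. These 6 are shown because the same position of the protein-coding frame was listed in several genes. The windows are drawn as above, from GRCm38, with the motif in capitals.

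In the first set all 4 paralogs were listed in both tissues, at codon 119 in Plxna1, 120 in Plxna2, 104 in Plxna3 and 120 in Plxna4, in exon 2.
Plxna1, chr6:89357280-89357300, minus strand: ctactgctGGACTatgcagcc
Plxna2, chr1:194644108-194644128, plus strand: ctgatcatTGACTactctgag
Plxna3, chrX:74331296-74331316, plus strand: ctcctcatAGACTatgcagcc
Plxna4, chr6:32517311-32517331, minus strand: ctgcttatAGACTacaaagaa

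The second set lay near the other end of the coding sequence, 346 nt before the end of the stop codon in each gene, in an exon of 213 nt (exon 30 in Plxna1, Plxna2 and Plxna4, and exon 31 in Plxna3), 100 nt from the nearest junction. It was listed in both tissues in Plxna1, Plxna3 and Plxna4 and in the cerebrum only in Plxna2.
Plxna1, chr6:89320946-89320966, minus strand: accttcatGGACTcctgctct
Plxna2, chr1:194810165-194810185, plus strand: acctttatGGACTcctgttcc
Plxna3, chrX:74341639-74341659, plus strand: accttcatGGACTcctgttct
Plxna4, chr6:32157921-32157941, minus strand: accttcatGGACTcctgctcc

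The third set, again in exon 2, was listed in all 4 paralogs in the cerebrum and in Plxna1 and Plxna3 in the cerebellum.
Plxna1, chr6:89357370-89357390, minus strand: cctgtagaAGACAatgagaaa
Plxna2, chr1:194644018-194644038, plus strand: ccagaagaGGACAacaaggct
Plxna3, chrX:74331206-74331226, plus strand: cccattgaGGACAatgctcgc
Plxna4, chr6:32517401-32517421, minus strand: ccagatgaGGACAaccccaag

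The fourth set was listed in both tissues in Plxna1, Plxna2 and Plxna4, and Plxna3 has no DRACH adenosine there.
Plxna1, chr6:89357171-89357191, minus strand: accgcaagGAACActacctgt
Plxna2, chr1:194644217-194644237, plus strand: acaagaagGAACActacttgt
Plxna4, chr6:32517202-32517222, minus strand: acaagaagGAACAttatctct

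The fifth set was listed in 3 paralogs in the cerebrum and in Plxna1 alone in the cerebellum, and the aligned DRACH adenosine of Plxna2 was in neither list.
Plxna1, chr6:89357464-89357484, minus strand: tcacgaacAGACAggagaggt
Plxna3, chrX:74331112-74331132, plus strand: gcaccgagTGACTggggaggt
Plxna4, chr6:32517495-32517515, minus strand: ggatgagaGGACAgggcacat

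The sixth set was listed in both tissues in Plxna1 and Plxna2.
Plxna1, chr6:89357499-89357519, minus strand: gtggccagTGACTggggcctc
Plxna2, chr1:194643889-194643909, plus strand: gagaatcgTGACTggactttc

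In the second set the 5-mer was GGACT in all 4 genes, and in the first set it was GGACT in Plxna1, TGACT in Plxna2 and AGACT in the other two.

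Over these genes with a site, the listed share rose with the length of internal exons, as it did over all coding genes. In internal exons of 200 nt or less, 2 of 1193 DRACH adenosines were listed in the cerebellum, 0.168% (0.046 to 0.609), and 5 of 1213 in the cerebrum, 0.412% (0.176 to 0.961). The shares were 2.45% and 2.25% for exons over 200 and up to 400 nt, and 15.4% and 20.3% for those over 400 and up to 1000 nt. Over all coding genes the shares were, in the same order of length, 0.233% and 0.597%, 2.54% and 3.96%, and 14.4% and 20.5%. In internal exons over 1000 nt, which are the 5 long exons of Plxna1, Plxna2, Plxna4, Plxnb1 and Plxnb2 described above, 33 of 107 were listed in the cerebellum, 30.8% (22.9 to 40.1), and 48 of 107 in the cerebrum, 44.9% (35.8 to 54.3). Over all coding genes internal exons over 1000 nt had 16.6% and 23.3% listed. In last exons over 1000 nt, where most ligand sites lay, 13.3% (11.5 to 15.2) and 22.1% (20 to 24.4) were listed. Such exons of all coding genes had 8.18% and 11.6% listed.

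**Figure D3:**
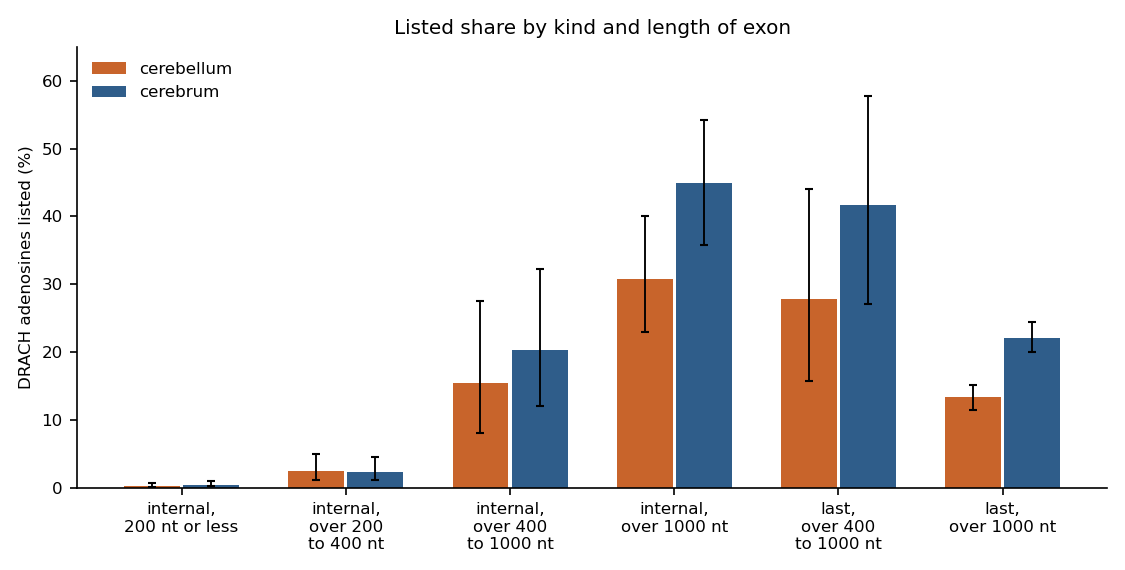
Percent of DRACH adenosines of the semaphorin, plexin and neuropilin transcripts with a site that were listed, by kind and length of exon, in the cerebellum and cerebrum; first exons are left out. Bars are shares and lines 95% Wilson intervals; internal exons of 200 nt or less were at 0.168% and 0.412%, internal exons over 1000 nt at 30.8% and 44.9%.

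Distance from exon junctions followed the same order. Of listed DRACH adenosines, 93.8% for cerebellum (89.9 to 96.2) and 92.9% for cerebrum (90 to 95) lay over 100 nt from the nearest junction, where 46.3% and 43.3% of the unlisted ones of the same transcripts did. In the coding sequence alone these shares were 85.7% and 84.7% for listed and 15.3% and 13.2% for unlisted adenosines. Among receptors 61 of 76 listed coding DRACH adenosines of the cerebrum lay over 100 nt from a junction, and among ligands 66 of 74.

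Around the stop codon, 16.8% of the DRACH adenosines within 200 nt on either side were listed for cerebellum (12.2 to 22.6) and 33.5% for cerebrum (27.4 to 40.1), beside 7.05% and 11.3% of those outside the window. Over all coding genes the shares inside the window were 14.8% and 19.8%. As a part of all coding-exon sites, however, the window held 13.3% in the cerebellum and 15.4% in the cerebrum, where over all coding genes it held 20.3% and 18.9%. Among ligand sites of the cerebrum 20.8% lay in the window (16.6 to 25.7) and among receptor sites 9.61% (6.69 to 13.6), and the window held 8.19% and 4.48% of their DRACH adenosines.

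**Figure D4:**
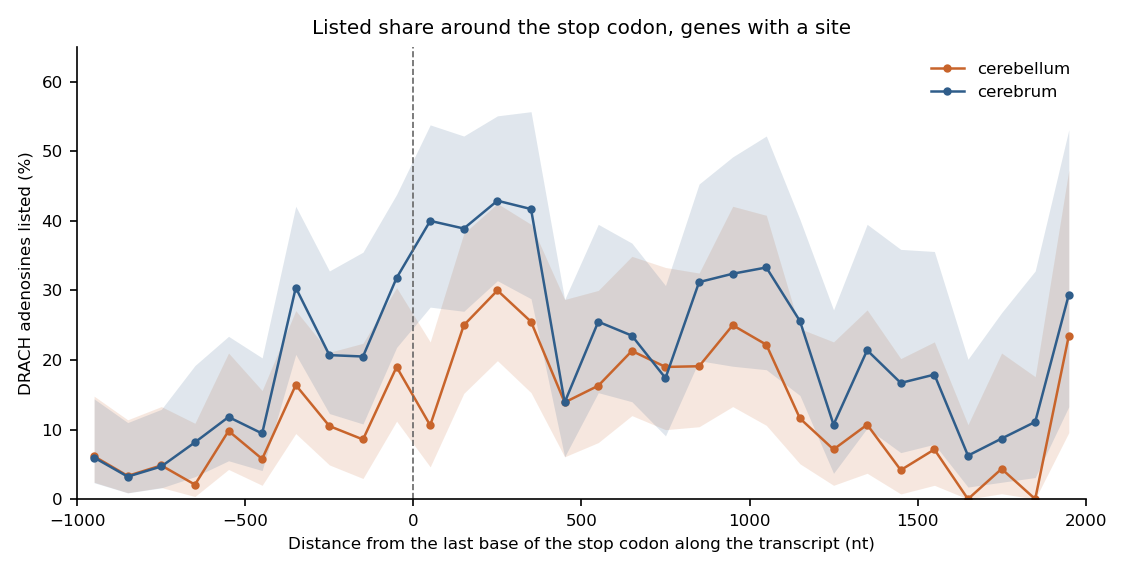
Percent of DRACH adenosines listed in bins of 100 nt by distance from the last base of the stop codon along the transcript, for the semaphorin, plexin and neuropilin genes with a site. Points are shares and bands 95% Wilson intervals; the cerebrum share was 42.9% between 200 and 300 nt after the stop codon and 3.23% between 900 and 800 nt before it.

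Of the sites on coding exons, the 3' UTR held 53.2% for cerebellum (47.7 to 58.6) and 52% for cerebrum (47.9 to 56), and it held 35.4% and 35.2% of their DRACH adenosines. Ligands had 59.9% and 57.5% of these sites in the 3' UTR and receptors 45.1% and 45.9%. Per DRACH adenosine of the 3' UTR the order was not that of the site shares: 10.3% (8.43 to 12.6) were listed in ligands and 10.6% (8.13 to 13.8) in receptors in the cerebellum, and 15.8% (13.5 to 18.5) and 21.5% (18 to 25.5) in the cerebrum. The cerebrum share of the receptors leaned on Plxna2. Of the 99 receptor adenosines listed there, 38 were in its last exon, which holds 94 DRACH adenosines. No share without Plxna2 was computed.

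The 5' UTR held few sites, and most of those belonged to the cerebrum list. In the receptors 18 of 64 DRACH adenosines of the 5' UTR were listed in the cerebrum, 28.1% (18.6 to 40.1), and 3 of 64 in the cerebellum, 4.69% (1.61 to 12.9). In the ligands the counts were 10 and 4 of 142. Nrp2, whose first exon of 993 nt is untranslated over most of its length, had 10 different sites in its 5' UTR, some of them also in the cerebellum list. Plxna2 had 7 sites in its 5' UTR and Sema3a had 4, and the sites of Plxna2 and Sema3a were in the cerebrum list only. Over all coding genes with a listed DRACH site 3.6% and 5.07% of the 5' UTR DRACH adenosines were listed in the cerebellum and cerebrum. The counts of ligands and receptors also take in genes without such a site.

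The 5-mer around a site was DRACH for 68.3% of sites in the cerebellum list (63.4 to 72.8) and for 49.8% in the cerebrum list (46.6 to 53), beside 62.1% and 46.7% of all listed sites. The most frequent were GGACT with 61 different sites, GGACA with 59, AGACT with 56, and GAACT and TGACT with 53 each. Set against how often each 5-mer occurs in these transcripts, GGACT was listed at 51 of 223 occurrences in the cerebrum, 22.9% (17.8 to 28.8), GAACT at 20.2% (15.4 to 25.9) and TGACT at 19.6% (15 to 25.3). At the other end TGACC was listed at 6 of 273, 2.2% (1.01 to 4.71), and AAACC at 2 of 128, 1.56% (0.43 to 5.52). Over all coding genes with a listed DRACH site these 5 shares were 23.5%, 20.4%, 15.1%, 1.86% and 1.22%. The shares of this system also take in its genes without a listed DRACH site, so the sets are unlike.

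Between the tissues, DRACH sites were shared more often than others, beyond the counting error. Of the cerebellum DRACH sites 209 of 256, 81.6% (76.4 to 85.9), were also in the cerebrum list, and of the other cerebellum sites 30 of 119, 25.2% (18.3 to 33.7). From the side of the larger cerebrum list the shares were 45.6% (41.1 to 50.2) and 6.49% (4.59 to 9.12). Over all coding genes 82% and 45.9% of the DRACH sites were shared. Of the 239 sites found in both lists 87.4% were DRACH sites (82.6 to 91.1), and of the sites found only in the cerebellum or only in the cerebrum 34.6% (27.1 to 42.9) and 36.6% (33 to 40.2).

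The ratio of DRACH sites in the cerebellum to those in the cerebrum had a median of 0.556 over the 23 genes with 5 or more cerebrum DRACH sites, and of 0.538 over the 5169 such coding genes. Sema3a, with 1 DRACH site against 20, and Plxnb1, a receptor of Sema4d, with 1 against 14, were lowest among those with any, and Sema5b had 0 against 7. At the other end Sema6a had 33 against 29. The order was set by single genes of each family: in class 6 the ratio ran from 1.14 in Sema6a over 0.814 in Sema6d and 0.6 in Sema6c to 0.333 in Sema6b, and in the A-type plexins from 0.81 in Plxna1 and 0.8 in Plxna3 to 0.5 in Plxna4 and 0.328 in Plxna2. These ratios hold no error estimate, since each rests on 1 library per tissue.

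Sites in introns were many in the cerebrum and few of them were shared. In the cerebrum 294 of 920 sites, 32% (29 to 35), lay on no annotated exon, and in the cerebellum 56 of 375, 14.9% (11.7 to 18.9), beside 29.6% and 21.8% over all coding genes. Of the 342 different intron sites 262 belonged to Sema6d, Plxna4 and Plxna2, whose genes span 577802, 443925 and 198652 nt. None of these 262 was found in both tissues, and 8 of the other 80 were.

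In Plxna4 72 of 115 intron sites lay in intron 3, which is 186120 nt long, and 23 in intron 4 of 59291 nt. In Sema6d 83 of 91 lay upstream of the first exon of the longest complete isoform. DRACH motifs made up 15.3% of the intron sites of the cerebrum (11.6 to 19.9) and 25% of those of the cerebellum (15.5 to 37.7). The intron sites of Plxna4 held 23 DRACH sites, those of Sema6d 13 and those of Plxna2 7.

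At 2 cerebellum sites the reference held no A. One lay in the 3' UTR of Sema6a, 2542 nt after the stop codon, where an A in place of the reference base would make a DRACH motif. The other lay in an intron of Sema6d, where it would not.
Sema6d, chr2:124626387-124626407, plus strand: cgctcctcCTGTActttggcc

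The authors also called sites on a PWK version of mm10, which by their account can find methylated adenosines that only PWK has. The lists name neither the allele nor the genome of a call. The PWK base at these positions was not looked up, so whether it is an A was not tested. The window of Sema6d is that of GRCm38, with the 5 bases around the site in capitals and the listed position as the middle base.

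The genes around this system were read from lists of 30 intracellular effectors and 8 co-receptors and other receptors. Of the effectors 26 had a site in the cerebellum and 28 in the cerebrum, and of the second list 6 and 8, beside the 41.2% and 57.4% of all coding genes. Their median was 4.5 and 14.5 sites for the effectors and 5.5 and 25.5 for the second list. Ptprz1, a receptor phosphatase, had the most sites, 115 and 149, with 88 shared. Cdk5r1, the activator of the kinase Cdk5, had 41 and 49 sites with 35 shared, and Mical3, of the oxidases that act on actin below plexins, 37 and 72 with 26 shared.

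Met, the hepatocyte growth factor receptor that pairs with B-type plexins, had no cerebellum site and 36 cerebrum sites, 28 of which were in DRACH motifs. Cfl1, the actin-severing cofilin, was the only gene of both lists with more sites in the cerebellum, 4 against 3. Dpysl2, which relays Sema3a signals to microtubules, had 8 and 24 sites, of which 2 and 3 were DRACH sites. Rras and Sh3bp1 had no site in either list.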

How the data were processed

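The authors treated poly(A)+ RNA of both tissues with glyoxal and nitrite, called sites with GLORI-tools on mm10 and on a PWK version of it, took the union per library, and retained calls whose methylation rate exceeded 0.1 and whose read count exceeded 8. The deposited files hold 1 position and strand per site, a value of another kind than counts or rates. The file of the cerebrum also carries an abbreviation of the cerebellum in its name; tissues were taken from the sample labels.

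Positions were read against GRCm38 with samtools 1.23.1 and pysam 0.24.0 under Python 3.11.15. A site on an exon was assigned to the longest isoform of GENCODE M21 that covers it, with complete coding sequence and both UTRs; the paper names another GENCODE release. DRACH was read from the genomic 5-mer, and of 670 coding-exon sites on the longest isoforms 0 changed DRACH status in the spliced sequence. Of the 1056 sites 13 also lay in another annotated gene on the same strand. Coding sequences of paralogs were translated, aligned with MAFFT 7.526 and compared by codon. Coordinate steps were tested on simulated data.

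The members, lists and alternatives were chosen with earlier results of these data known. Full values were given for the 5 ligands and 5 receptors with the most sites, for every gene without a site in a list and for every gene with more sites in the cerebellum; other genes named with values were picked after their values were seen. There was 1 library per tissue, so no test was made. Shares have 95% Wilson intervals, and the alternatives were isoform choice, site subsets, windows and single genes left out.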

Additional observations from a re-analysis of the deposited data

How the results depend on the processing

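Of 54 alternative values, 28 stayed within the main 95% interval, or within 1.5 times a count, and 26 moved. With only sites found in both libraries, the 375 cerebellum and 920 cerebrum sites became 239, and the DRACH share became 87.4% in both; with exonic sites only it was 75.9% and 66%. The shared part rose from 63.7% to 81.6% (cerebellum) and from 26% to 45.6% (cerebrum) with only DRACH sites. The 3' UTR share of the cerebrum rose to 56.6% with only DRACH sites. A window of 400 nt around the stop codon held 30.1% and 31.7%. Over 200 nt from a junction lay 88.4% and 83.7% of DRACH sites, and 95.6% of shared cerebrum ones lay over 100 nt from it.

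The listed share of ligands was 10.3% and 15.8% in the 3' UTR alone and 4.32% and 6.94% in the coding sequence alone, and that of receptors 10.6%, 21.5%, 4.3% and 6.29%. In the cerebellum it was 5.57% for ligands without Sema6d and 4.95% for receptors without Plxna4, and 8.2% for ligands with only genes that have a site; for receptors of the cerebrum the last was 13.1%. The cause of these moves is the changed set of sites, adenosines, genes or window; the APPRIS principal isoform moved no value. No paired analysis was possible because there was 1 library per tissue. Depth is unknown and limits every absence of a site.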
